A study of Mus musculus with 12 samples.

Results

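The genes described here are 8 genes of the renin-angiotensin system (Ren1, Agt, Ace, Agtr1a, Agtr1b, Mme, Enpep and Atp6ap2), measured by RNAseq in mouse kidney cortex. They were chosen by gene symbol, which was looked up from the Ensembl identifier of each row of the count table. All 8 were found among the 37681 genes of the table, and 7 had enough reads to be among the 19399 genes tested. Agtr1b did not. The TRACK mouse (TRACK/γ-HIF1αM3, written TG+) carries a mutated, constitutively active form of HIF1α, the transcription factor of the hypoxia response. It expresses this form in the proximal tubules of the kidney, so that other cells of the cortex are not the site of the transgene. The TG- mice were wild-type littermates. All mice were C57BL/6 males, 18 months old, for which no treatment is described. Each group had 3 mice, with a library from each of the 2 kidneys of a mouse, taken from a thin layer of the cortex. The question addressed is whether the mRNA levels of these genes differ between the cortex of TG+ and TG- mice.

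The renin-angiotensin system controls blood pressure and salt balance. Renin, an aspartyl protease released by juxtaglomerular cells at the glomerular arteriole, cuts angiotensinogen to angiotensin I, and angiotensin-converting enzyme trims this to angiotensin II, which acts on the type 1 receptor. The kidney has a local form of the system, in which angiotensinogen, the converting enzyme and the receptor are present along the proximal tubule, and peptidases of the brush border break the angiotensins down.

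Between 48052131 and 60506785 reads were counted per mouse, and between 21888584 and 33704850 per library. Levels are given as CPM (read counts scaled to the normalized library size), and a fold change as its log2, TG+ over TG-, with its SE. A gene was called in either of 2 ways: at the threshold of the study (a fold change of more than 2 or less than 0.5 and an adjusted p below 0.01), or at an adjusted p below 0.05 with any fold change. All p-values were adjusted by the Benjamini-Hochberg method over every gene tested, in a quasi-likelihood fit by edgeR. An exact permutation test over the 20 ways to split 6 mice into 3 and 3 cannot give a 2-sided p under 0.1. Markers of the proximal tubule and of the distal nephron were both present. The summed level of 7 markers of the first proximal segments was 9185 to 9559 CPM in TG+ and 13514 to 14370 CPM in TG- mice. Of this sum Slc34a1 alone gave 5070 ± 168 CPM in TG+ and 8600 ± 413 CPM in TG- mice (SD, n = 3). At an adjusted p below 0.05 by edgeR, 5 of the 7 were not called. Markers of the distal nephron (Umod, Slc12a3 and Aqp2) together gave 2635 to 3501 CPM in TG+ and 2817 to 2891 CPM in TG- mice. The 2 sums hold different genes and are not compared with each other. Hif1a, the mouse gene, stood at 95.7 ± 11.8 CPM in TG+ and 104 ± 2.17 CPM in TG- mice (SD, n = 3), with an adjusted p of 0.343. The table has no separate entry for the transgene, so this does not check the genotype.

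Of the 7 tested genes, 2 were higher in TG+ cortex (Ace and Mme) and 2 were lower (Enpep and Atp6ap2) at an adjusted p below 0.05, while Ren1, Agt and Agtr1a were not called. Among all genes tested, 15.4% were higher and 10.9% lower by the same rule, and 2 of 7 genes in either direction are too few to be read against those shares. At the threshold of the study 0 of the 7 genes were higher and 0 lower, where 3.77% of all tested genes were higher and 0.211% lower. DESeq2 gave 0 in each direction as well, and at an unadjusted p under 0.05 in edgeR 5 of the 7 genes passed, beside 39.1% of all tested genes. The TG+ and TG- mice did not overlap for the same 4 genes, 2 in each direction. For this measure the shares among all tested genes were 23.4% for higher and 20.8% for lower. Over the 7 genes the log2 fold change had a median of -0.04, beside 0.01 for all tested genes.

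**Figure D1:**
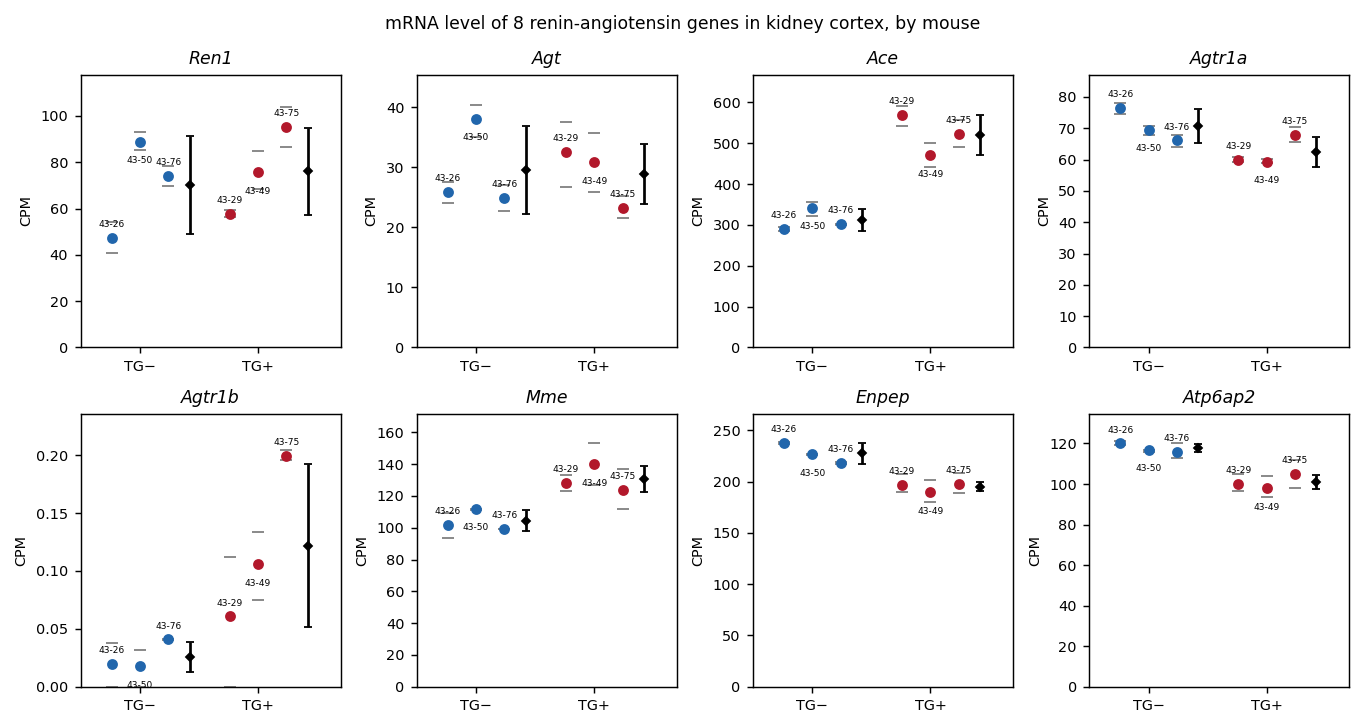
Level of each of the 8 genes (vertical axis, CPM, starting at 0) in TG- mice (blue) and TG+ mice (red). A coloured point is a mouse with its number, grey dashes are its 2 kidneys, and the black diamond with bars is the mean ± SD of 3 mice. The groups separate for Ace, Mme, Enpep and Atp6ap2 and interleave for Ren1, Agt and Agtr1a, and Agtr1b lies below 0.2 CPM in every mouse.

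Angiotensinogen, the substrate of the whole cascade, is encoded by Agt (ENSMUSG00000031980, chromosome 8). Its level was 32.6, 30.9 and 23.3 CPM in the TG+ mice 43-29, 43-49 and 43-75. In the TG- mice 43-26, 43-50 and 43-76 it was 25.9, 38.1 and 24.9 CPM. The lowest mouse was TG+ and the highest TG-, and the groups overlapped over most of their range. The log2 fold change was -0.04 (SE 0.18, 95% interval -0.46 to 0.39, adjusted p = 0.907 by edgeR). Agt also differed most between the 2 kidneys of a mouse, by up to 1.40-fold in 43-29, with 26.8 CPM in kidney 1 and 37.5 CPM in kidney 2. Its sign was not fixed by these mice: it turned to 0.18 when the TG- mouse 43-50 was left out.

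Renin is encoded by Ren1 (ENSMUSG00000070645, chromosome 1). C57BL/6 mice carry no Ren2, so renin reads have no near-identical gene to be shared with, and none of the 51-base windows of the longest Ren1 transcript occurred in a transcript of another gene. Ren1 stood at 57.6, 75.8 and 95.1 CPM in the TG+ mice 43-29, 43-49 and 43-75. In the TG- mice 43-26, 43-50 and 43-76 it stood at 47.3, 88.9 and 74.1 CPM. Each group held low and high mice, and the lowest of all was TG-. The log2 fold change was 0.12 (SE 0.24, 95% interval -0.45 to 0.68, adjusted p = 0.762 by edgeR), so that fold changes from 0.734 to 1.61 lie within the interval. Ren1 had the widest spread of the 7 genes. Its standard deviation within groups, 0.419 on the log2 scale, was larger than that of 91.8% of tested genes, whereas the 2 kidneys of a mouse differed by a median of 1.17-fold and at most 1.33-fold. Without the TG- mouse 43-26 the log2 fold change was -0.10, and without the TG+ mouse 43-75 it was -0.08.

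Of 9 other markers of renin cells and of the vascular smooth muscle beside them, 5 were higher and 0 lower at an adjusted p below 0.05, with a median log2 fold change of 0.71, and the other 4 (Gja5, Myh11, Acta2 and Cnn1), like Ren1, were not called. Akr1b7, an aldo-keto reductase found in renin cells, rose by 0.93 on the log2 scale (SE 0.14, adjusted p = 0.0028 by edgeR), from 1.55 ± 0.0329 to 2.95 ± 0.316 CPM (SD, n = 3). Gja4, a gap junction protein of arterial endothelium that is also found in renin cells, rose by 0.74 (SE 0.10, adjusted p = 0.00226 by edgeR). The summed level of the 9 markers was 204 to 277 CPM in TG+ and 140 to 178 CPM in TG- mice, and none was at 0 in any mouse. In a bulk sample fewer cells of a type and less RNA per cell cannot be told apart, and the same holds for more. Whether Ren1 and these markers differ from each other in their change was not tested.

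Genes known to control renin release or transcription were mostly not called. Of 17 listed, 1 was higher and 0 were lower at an adjusted p below 0.05, with a median of 0.11. The called gene was Ptges, a prostaglandin E synthase, at 0.29 (SE 0.07, adjusted p = 0.0247 by edgeR). Next by p came Nr1h3, which encodes the liver X receptor alpha, at -0.20 (SE 0.06, adjusted p = 0.0581 by edgeR).

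Atp6ap2 (ENSMUSG00000031007, chromosome X) encodes the (pro)renin receptor, a membrane protein that binds renin and prorenin and is also an accessory subunit of the vacuolar proton pump, the V-ATPase. It was 100, 98.0 and 105 CPM in the TG+ mice 43-29, 43-49 and 43-75. It was 120, 117 and 116 CPM in the TG- mice 43-26, 43-50 and 43-76. All TG+ mice were below all TG- mice. The change was small, 0.858-fold (log2 -0.22, SE 0.05, 95% interval -0.34 to -0.10, adjusted p = 0.0168 by edgeR). Its spread within groups, 0.0384 on the log2 scale, was among the smallest: 4.46% of tested genes had a smaller one. The call was lost when the TG- mouse 43-26 (adjusted p = 0.0506) or 43-76 (0.0515) was left out, with kidney 2 alone (0.0859) and with scaling by library size alone, where it was -0.10 (adjusted p = 0.158). That last scaling shifts the median over all tested genes, which is 0.01 otherwise, to 0.13, so the values it gives are read relative to that shift.

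Some subunits of the V-ATPase fell by a like amount. Of 21 subunit genes 0 were higher and 4 lower at an adjusted p below 0.05, with a median of -0.11 and a range of -0.32 to 0.08. Atp6v0a4, the a4 subunit of acid-secreting cells and the proximal tubule, was at -0.32 (SE 0.05, adjusted p = 0.0036 by edgeR). Atp6v1e1, a subunit of the pump's stalk, was at -0.24 (SE 0.05, adjusted p = 0.01 by edgeR). Atp6ap1, the other accessory subunit, was at -0.00 (SE 0.05, adjusted p = 0.988 by edgeR).

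Ace (ENSMUSG00000020681, chromosome 11), the angiotensin-converting enzyme of endothelium and proximal tubule brush border, showed the largest change of the 7 genes. It was 569, 471 and 523 CPM in the TG+ mice 43-29, 43-49 and 43-75. It was 290, 342 and 303 CPM in the TG- mice 43-26, 43-50 and 43-76. The lowest TG+ mouse was above the highest TG- mouse by more than the SD of either group, which was 48.9 CPM in TG+ and 27.4 CPM in TG- (n = 3). All 12 libraries separated as well, since the lowest TG+ kidney had 442 CPM and the highest TG- kidney 357 CPM. The level was 1.67-fold that of TG- mice (log2 0.74, SE 0.09, 95% interval 0.53 to 0.95, adjusted p = 0.00115 by edgeR). The interval ends under the 2-fold limit of the study's threshold. Ace remained called with each of the 6 mice left out in turn, at 0.66 to 0.81.

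Ace lies on the opposite strand to Gm11651, a gene model of unknown role that was looked at after the Ace values were known. Of 4856 windows of 51 bases in the longest Ace transcript, 199 (4.10%) also occur in a Gm11651 transcript. Gm11651 was 46.9, 40.1 and 45.2 CPM in TG+ and 25.5, 28.2 and 24.9 CPM in TG- mice, a log2 fold change of 0.75 (SE 0.08, adjusted p = 0.00061 by edgeR). How the authors' counting treated strand is not given in the sources used here, so reads of Ace and Gm11651 cannot be told apart where they overlap. Ace had more than 10 times the reads of Gm11651 in every mouse.

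Markers of endothelium, which carries Ace, were also higher. All 7 were higher at an adjusted p below 0.05, with a median of 0.71 and a summed level of 617 to 662 CPM in TG+ and 355 to 463 CPM in TG- mice, none of them at 0. Flt1, a receptor for vascular endothelial growth factor, was at 0.80 (SE 0.09, adjusted p = 0.000931 by edgeR), and Pecam1, an adhesion molecule of endothelial junctions, at 0.71 (SE 0.10, adjusted p = 0.00257 by edgeR). Markers of the proximal tubule, which also carries Ace, were lower or not called in the first segments. There 0 of 7 were higher and 2 were lower, with a median of -0.29, and the phosphate transporter Slc34a1 was at -0.76 (SE 0.06, adjusted p = 0.000158 by edgeR). The endocytic receptor megalin, Lrp2, was at -0.46 (SE 0.06, adjusted p = 0.00213 by edgeR). In the last segment, S3, 1 of 4 was higher, the glucose transporter Slc5a1 at 0.54 (SE 0.10, adjusted p = 0.00579 by edgeR), and 2 were lower, among them the amino acid transporter Slc7a13 at -0.75 (SE 0.07, adjusted p = 0.000334 by edgeR). Summed, the 4 stood at 2467 to 2545 CPM in TG+ and 3101 to 3258 CPM in TG- mice. The part of either cell type in the Ace result was not tested.

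Mme (ENSMUSG00000027820, chromosome 3) encodes neprilysin, a brush border and podocyte peptidase that cuts angiotensin I and many other peptides. It was 128, 140 and 124 CPM in the TG+ mice 43-29, 43-49 and 43-75. It was 102, 112 and 99.3 CPM in the TG- mice 43-26, 43-50 and 43-76. The groups did not overlap, but the gap between the lowest TG+ and the highest TG- mouse was narrow. The level was 1.25-fold (log2 0.33, SE 0.07, 95% interval 0.17 to 0.49, adjusted p = 0.0122 by edgeR), and without the TG- mouse 43-76 the call was lost at 0.29 (adjusted p = 0.0548). Single kidneys met, since kidney 2 of the TG+ mouse 43-75 had 112 CPM and kidney 1 of the TG- mouse 43-50 also had 112 CPM. Of 6 podocyte markers 2 were higher and 0 lower, with a median of 0.27 and a summed level of 564 to 659 CPM in TG+ and 433 to 541 CPM in TG- mice, none at 0. Podxl, a sialomucin of podocyte foot processes, was at 0.37 (SE 0.08, adjusted p = 0.0166 by edgeR), and Synpo, of their actin skeleton, at 0.31 (SE 0.09, adjusted p = 0.0393 by edgeR). Their part in the Mme result was not tested.

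Enpep (ENSMUSG00000028024, chromosome 3) encodes aminopeptidase A, the brush border enzyme that removes the first residue of angiotensin II. It was 197, 190 and 198 CPM in the TG+ mice 43-29, 43-49 and 43-75. It was 238, 227 and 218 CPM in the TG- mice 43-26, 43-50 and 43-76. All TG+ mice were lower than all TG- mice, and the TG+ mice lay within a few percent of each other. The level was 0.855-fold (log2 -0.23, SE 0.05, 95% interval -0.35 to -0.10, adjusted p = 0.0203 by edgeR). The call was lost without the TG- mouse 43-26 (adjusted p = 0.0639) or 43-50 (0.0508), with kidney 2 alone (0.0552), and with scaling by library size alone, where the value was -0.11 (adjusted p = 0.161).

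Mme and Enpep, both peptidases of the same membrane, thus moved in opposite directions. Their shared list, 7 other brush border peptidases, had 3 higher and 0 lower genes, with a median of 0.10. Xpnpep2, an aminopeptidase P, was the member past the threshold of the study, at 1.25 (SE 0.19, adjusted p = 0.00313 by edgeR), with 20.2, 18.5 and 21.3 CPM in TG+ and 5.71, 9.74 and 9.80 CPM in TG- mice. Ggt1, which encodes a gamma-glutamyl transferase of the same membrane, was at -0.18 (SE 0.07, adjusted p = 0.0856 by edgeR). Of the 7 markers of the first proximal tubule segments, which also carry Enpep, 2 were lower and the other 5 were not called, and the part of these cells in the Enpep result was not tested.

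Agtr1a (ENSMUSG00000049115, chromosome 13) and Agtr1b (ENSMUSG00000054988, chromosome 3) encode the type 1 angiotensin II receptors of the mouse, which raise blood pressure and sodium uptake. Their reading frames have 1080 bases each and are identical at 90.8% of positions in the GENCODE M21 transcripts. The longest run that they share is 66 bases, bases 75 to 140 of both frames, shown because a read of 51 bases that falls inside it cannot be assigned to either gene. It holds no capitals, since every base is common to both.

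Agtr1a and Agtr1b: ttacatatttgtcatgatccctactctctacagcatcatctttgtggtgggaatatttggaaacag

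Only 31 of the 2149 windows of 51 bases in the longest Agtr1a transcript (1.44%) were shared with Agtr1b, so a small part of either gene gives reads that could be counted on the other. Agtr1a was 59.9, 59.3 and 67.8 CPM in the TG+ mice 43-29, 43-49 and 43-75. It was 76.6, 69.5 and 66.1 CPM in the TG- mice 43-26, 43-50 and 43-76. The TG+ mouse 43-75 lay above the TG- mouse 43-76, so the groups overlapped. The log2 fold change was -0.18 (SE 0.08, 95% interval -0.36 to -0.00, adjusted p = 0.123 by edgeR), and it would be called with each kidney as its own library (adjusted p = 0.0184), a fit that treats the kidneys of a mouse as independent. The kidneys of a mouse differed by at most 1.07-fold, the least of the 7 genes.

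Agtr1b was close to the limit of detection. It had 3, 6 and 10 reads in the TG+ mice 43-29, 43-49 and 43-75, and 1, 1 and 2 reads in the TG- mice 43-26, 43-50 and 43-76. The TG+ mice had more reads than any TG- mouse, but 2 of 6 TG- libraries and 1 of 6 TG+ libraries had no read at all. Per total read the ratio was 5.2, with a 95% exact interval for counting error of 1.73 to 21.0. Without the filter on low counts the adjusted p by edgeR was 0.0667. Agtr1a had 2962 or more reads in every mouse, and 1.44% of its windows are shared with Agtr1b. That small part could give as many reads as were counted on Agtr1b. Whether the Agtr1b reads came from Agtr1a was not tested.

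Levels can be compared between genes only per length, for which the authors' RPKM (read counts scaled by gene length and library depth, mean of the 2 kidneys) was used. In TG- mice Atp6ap2 stood at 39.5 ± 0.608 RPKM (SD, n = 3). Below it came Ace at 27.0 ± 2.27, Agtr1a at 26.5 ± 1.99, Ren1 at 21.3 ± 6.39, Enpep at 19.0 ± 0.854, Agt at 15.8 ± 3.79 and Mme at 13.3 ± 0.794 RPKM. Agtr1b was lowest at 0.0170 ± 0.00431 RPKM, a value that includes the read the authors added to each count. From Ace down to Mme each gene overlapped the next over the 3 mice, while Atp6ap2 and Agtr1b stood clear of their neighbours. In TG+ mice Ace stood at 43.9 ± 3.97 RPKM, above Atp6ap2 at 33.2 ± 1.19 RPKM, and these did not overlap. Agtr1a at 22.8 ± 1.82, Ren1 at 22.6 ± 5.65, Mme at 16.2 ± 0.964, Enpep at 15.9 ± 0.361 and Agt at 15.0 ± 2.42 RPKM again overlapped one with the next.

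This order rests on the gene lengths behind the RPKM. The ratio of CPM to RPKM corresponds to about 11.7 kb for Ace and 12.1 kb for Enpep, whereas their longest GENCODE M21 transcripts have 4.91 and 4.18 kb, and for Ren1 the values are 3.33 and 1.59 kb. For Agt (1.90 and 1.89 kb) and Mme (7.96 and 8.04 kb) the lengths were close. Per kilobase of the longest transcript, a scale chosen after the data were seen, Ace was highest in both groups, at 63.5 ± 5.52 CPM per kb in TG- and 106 ± 9.99 CPM per kb in TG+ mice (SD, n = 3). In TG- mice Enpep at 54.5 ± 2.40 and Atp6ap2 at 50.6 ± 0.896 CPM per kb followed. Among the 8 genes the place of Atp6ap2, Agtr1a and Enpep therefore differs between the scales in both groups. That of Ace differs in TG- mice only, and those of Ren1 and Mme in TG+ mice only. Mme and Agt were the lowest tested genes by transcript length in both groups. Fold changes of a gene do not depend on its length.

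**Figure D2:**
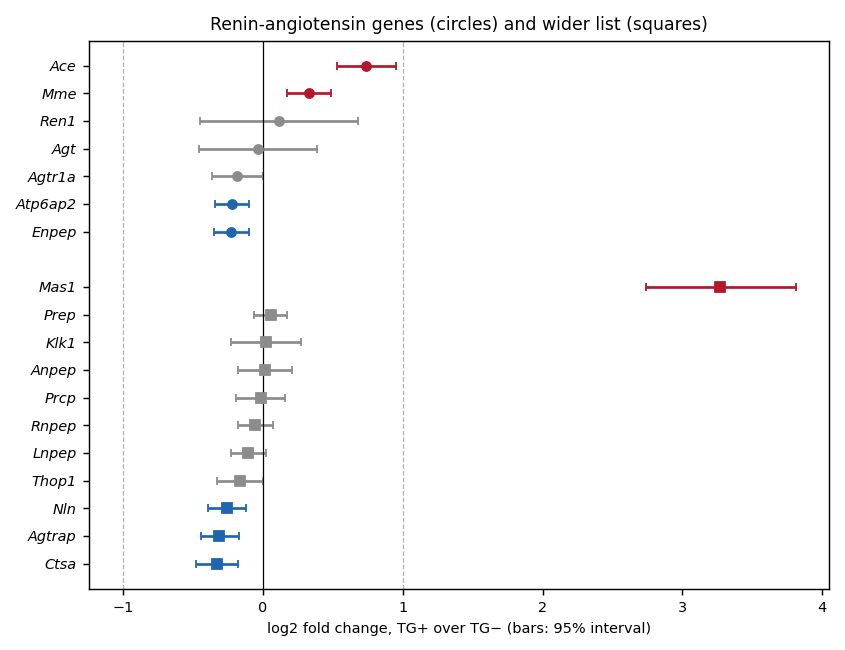
Log2 fold change, TG+ over TG- (horizontal axis), of the 7 tested genes (circles) and the 11 tested genes of the wider list (squares), with 95% intervals as bars and dashed lines at a 2-fold change. Red and blue mark genes higher and lower at an adjusted p below 0.05, grey the others; Mas1 at 3.27 is the only gene whose interval lies wholly outside the dashed lines.

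The wider system was followed in 17 further genes for other receptors, angiotensin-cutting enzymes and binding proteins, of which 11 were tested. At an adjusted p below 0.05, 1 was higher (Mas1) and 3 were lower (Agtrap, Nln and Ctsa), and 1, Mas1, passed the threshold of the study, with a median of -0.06. Agtr2, the type 2 receptor, had at most 6 reads in any mouse and was not tested. The untested genes also held Mrgprd and Cma2, with 0 reads in all mice, and Ctsg, Cma1 and Cpa3, genes of granulocytes and mast cells.

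Mas1 encodes a G protein-coupled receptor of the system, whose effects oppose those of the type 1 receptor. It had the largest change of the tested genes of the system, at 50.6, 26.8 and 43.0 CPM in the TG+ mice 43-29, 43-49 and 43-75. It was 4.48, 4.03 and 3.93 CPM in the TG- mice 43-26, 43-50 and 43-76. The TG+ mice were spread widely, with 43-49 lowest, but that mouse was still far above every TG- mouse. The level was 9.67-fold (log2 3.27, SE 0.23, 95% interval 2.74 to 3.81, adjusted p = 9.79e-05 by edgeR).

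Mas1 overlaps Airn, a long noncoding RNA transcribed from the opposite strand, and lies close to the imprinted gene Igf2r. Both were looked at after the Mas1 values were known. Airn was 30.3, 23.7 and 32.4 CPM in TG+ and 8.44, 7.37 and 8.70 CPM in TG- mice, a log2 fold change of 1.82 (SE 0.13, adjusted p = 9.9e-05 by edgeR). In both genes 43-49 was the lowest TG+ mouse. Igf2r moved the other way, from 216 ± 1.65 to 169 ± 8.35 CPM (SD, n = 3), at -0.35 (SE 0.05, adjusted p = 0.00342 by edgeR). None of the 2351 windows of 51 bases in the longest Mas1 transcript occurs in a spliced transcript of another gene. Reads of an unspliced Airn that cross Mas1 cannot be told apart from Mas1 reads without strand, and they could be counted on either gene.

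**Figure D3:**
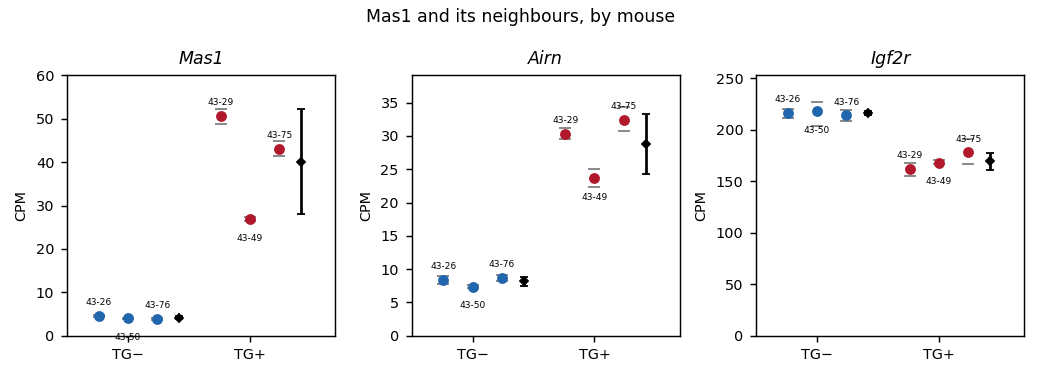
Level of Mas1, Airn and Igf2r (vertical axes, CPM, starting at 0) in TG- mice (blue) and TG+ mice (red), with kidneys as grey dashes and the mean ± SD of 3 mice as black diamonds. Mas1 and Airn are higher in every TG+ mouse, with 43-49 lowest among them, and Igf2r is lower in every TG+ mouse.

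Of the genes that fell, Agtrap encodes a protein that binds the type 1 receptor and promotes its uptake into the cell. It was at -0.31 (SE 0.06, adjusted p = 0.00751 by edgeR), with 116, 116 and 122 CPM in TG+ and 137, 149 and 152 CPM in TG- mice. Nln, the peptidase neurolysin, was at -0.25 (SE 0.06, adjusted p = 0.0147 by edgeR). Ctsa, the lysosomal carboxypeptidase cathepsin A, was at -0.33 (SE 0.06, adjusted p = 0.00848 by edgeR). Anpep, aminopeptidase N, which acts after Enpep in the breakdown of angiotensin II, was not called at 0.02 (SE 0.08, adjusted p = 0.909 by edgeR).

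The promoters are shown for Mas1, which had the largest change, and for 2 genes that moved in opposite directions, Ace and Atp6ap2. Each is the 250 bases before a RefSeq start in GRCm38.p6, and for Ace the first of its 2 listed starts. A stretch after the start occurred in a GENCODE M21 transcript of the gene for Ace, but not for Mas1 or Atp6ap2. The starts of Mas1 and Atp6ap2 are therefore not backed by that check. Capitals mark the motifs ACGTG and GCGTG, the core letters that HIF1α is known to bind, searched on both strands, where matches on opposite strands can share letters.

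Mas1 (chr17:12868144-12868393, minus strand): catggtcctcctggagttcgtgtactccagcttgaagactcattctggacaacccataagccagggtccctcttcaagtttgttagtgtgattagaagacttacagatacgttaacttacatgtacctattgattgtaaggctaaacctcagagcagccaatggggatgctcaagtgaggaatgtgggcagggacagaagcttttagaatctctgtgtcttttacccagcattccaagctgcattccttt
Ace (chr11:105967698-105967947, plus strand): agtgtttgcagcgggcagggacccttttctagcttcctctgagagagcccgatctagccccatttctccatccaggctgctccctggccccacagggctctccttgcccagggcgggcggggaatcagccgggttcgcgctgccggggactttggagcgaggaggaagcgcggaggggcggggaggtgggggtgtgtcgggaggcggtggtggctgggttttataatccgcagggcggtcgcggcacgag
Atp6ap2 (chrX:12587509-12587758, plus strand): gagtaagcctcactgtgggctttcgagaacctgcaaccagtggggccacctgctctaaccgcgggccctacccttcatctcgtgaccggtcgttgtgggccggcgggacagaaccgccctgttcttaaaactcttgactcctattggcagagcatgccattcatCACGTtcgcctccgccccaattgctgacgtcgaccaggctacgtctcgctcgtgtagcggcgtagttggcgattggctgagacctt

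The Mas1 window and both windows of Ace held 0 matches and the Atp6ap2 window held 1. The windows of Enpep, Agt and Ren1 held 0 as well, and of the 3 windows of Mme 1 held a match. Among 32851 promoter windows of the same length, 38.6% held a match. A match here describes letters in the window only, and it says nothing about binding in these mice.

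The hormone downstream of angiotensin II is aldosterone, and its target genes are part of the same axis. Of 14 genes for aldosterone action and distal sodium transport 1 was higher and 1 lower, with a median of 0.02. Sgk1, the kinase that aldosterone induces, was 105, 124 and 65.0 CPM in the TG+ mice 43-29, 43-49 and 43-75. It was 59.2, 57.6 and 51.2 CPM in the TG- mice, a difference of 0.80 on the log2 scale (SE 0.21, adjusted p = 0.0248 by edgeR). Slc9a3, the sodium-proton exchanger of the proximal tubule, was lower at -0.49 (SE 0.09, adjusted p = 0.00828 by edgeR). Of 5 tested genes of the kallikrein-kinin system, whose peptide bradykinin is cut by Ace, 0 were called. By an unadjusted p under 0.05, which 39.1% of all tested genes passed, it was 1, the carboxypeptidase gene Cpn1 at 0.43 (SE 0.17, adjusted p = 0.099 by edgeR), and Kng2, a kininogen, was at 0.11 (SE 0.06, adjusted p = 0.222 by edgeR).

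**Figure D4:**
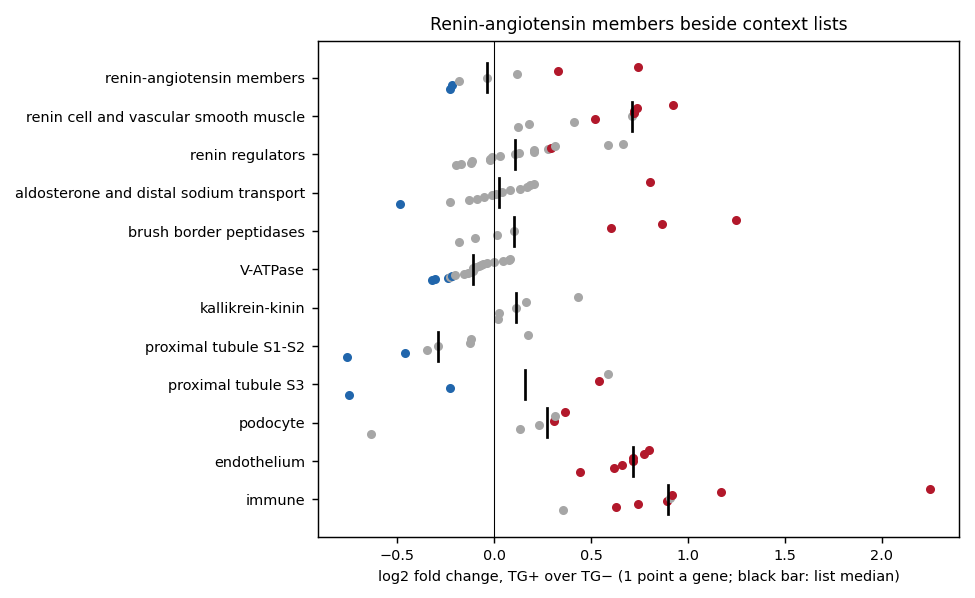
Log2 fold change, TG+ over TG- (horizontal axis), of every tested gene of the renin-angiotensin set and of 11 lists, 1 point a gene, red where higher and blue where lower at an adjusted p below 0.05, with the list median as a black bar. The renin-angiotensin genes lie on both sides of 0 with a median of -0.04, while all points of the endothelium, immune and renin cell lists lie above 0.

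Immune cell markers were among the lists that moved. Of 8, 6 were higher and 0 lower, with a median of 0.90 and a summed level of 158 to 177 CPM in TG+ and 89.3 to 114 CPM in TG- mice, and none was at 0. Cd79a of B cells was at 2.25 (SE 0.27, adjusted p = 0.00107 by edgeR) and Cd3e of T cells at 1.17 (SE 0.17, adjusted p = 0.00243 by edgeR). Immune cells also carry some Ace and Mme, and their part in those results was not tested. Angiotensinogen is a classical hepatocyte product, and of 11 tested hepatocyte genes 2 were higher and 1 lower, with a median of -0.02. These were Apoa1 at 3.64 (SE 0.44, adjusted p = 0.00115 by edgeR), Ttr at 1.42 (SE 0.17, adjusted p = 0.00115 by edgeR) and Apoh at -1.41 (SE 0.14, adjusted p = 0.000403 by edgeR). Apoa1 was near the floor in TG- mice, with 3, 19 and 4 reads in 43-26, 43-50 and 43-76. In the TG+ mice 43-29, 43-49 and 43-75 it had 101, 114 and 107 reads. The other 8 genes, Alb among them, were not called.

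For each called gene the tested genes with the most like pattern over the 6 mice were found, by the root mean square difference of log2 CPM after each gene was centred on its own mean, among 16180 genes of at least 1 CPM. Nearest to Ace was Rnf217, at 0.0261, followed by Gm12969 and Gm5944. Nearest to Mme was B430305J03Rik, at 0.0318, followed by Gpm6a and Tlnrd1. Enpep was nearest to Tmem161b, at 0.0122, then Usp5 and Snx27. Atp6ap2 was nearest to Ggnbp2, at 0.0109, then Mgrn1 and Arl8a. These matches are given as a description over 6 mice.

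How far the values of the 7 genes rest on the processing and on single mice is shown in the plot of fold changes by setting. Ace lay well clear of 0 throughout, Mme, Enpep and Atp6ap2 held their sign with small values, and the spread of Ren1 and Agt came mainly from leaving out a mouse.

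**Figure D5:**
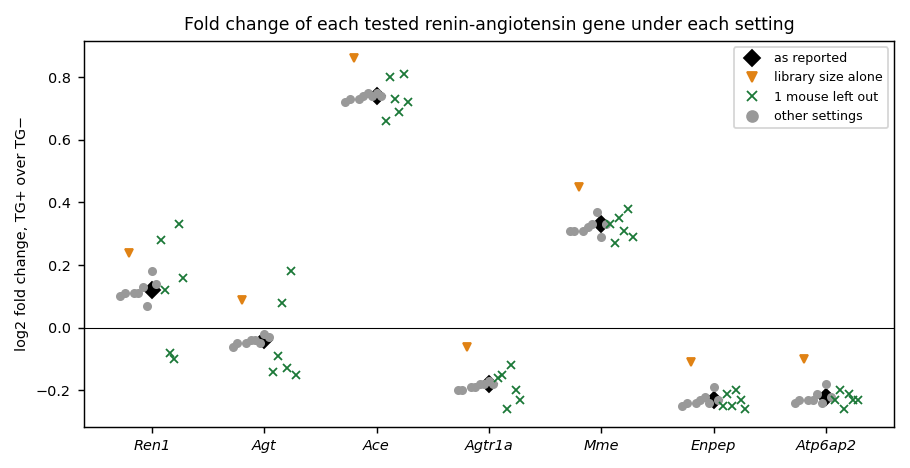
Log2 fold change, TG+ over TG- (vertical axis), of the 7 tested genes as reported (black diamonds) and under 15 other settings: library size alone (orange triangles), each of 6 mice left out (green crosses) and the others (grey points). Ace and Mme stay above 0 and Agtr1a, Enpep and Atp6ap2 below 0 under all settings, whereas Ren1 and Agt cross 0 when single mice are left out.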

How the data were processed

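RNAseq was performed by the authors on kidney cortex (51-bp single-end reads, TruSeq RNA kit, Tuxedo tools). The build mm9 comes from the submitters' processing notes, and the counting program, the annotation and the handling of strand are not given in the sources used here. The authors deposited raw read counts per Ensembl gene for 12 libraries. They also deposited RPKM, which followed the count plus 1 within 0.1% for 100% of values and was used for levels per length only. The deposited log2 RPKM and the authors' own comparison columns (fold changes, p-values and q-values) were not used.

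Symbols came from GENCODE M21 for 32642 of 37681 genes (86.6%). The counts of the 2 kidneys of each mouse were summed. Genes kept by filterByExpr were normalized by TMM and tested with edgeR 4.0.16 (quasi-likelihood, genotype only, Benjamini-Hochberg; limma 3.58.1, R 4.3.3), 3 TG+ against 3 TG- mice. The SE is the log2 fold change over the square root of F. Alternatives included DESeq2 1.42.0. CPM is on the effective library size, and intervals for single read ratios cover counting error only. The script was tested on simulated data. Tables and plots used Python 3.11.15, pandas 2.3.3, numpy 2.4.6, scipy 1.17.1 and matplotlib 3.10.9.

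The 8 genes and all lists were chosen with earlier results of these data known. Named genes are the 8 genes, the genes of the wider list past an adjusted p of 0.05 with Agtr2 and Mas1, from each other list those past the threshold of the study or else the 2 with the smallest p, and the 3 genes nearest in pattern to each called gene. Others named were chosen after their values were seen, and 1 listed gene is not reported here. The window sequences are from RefSeq GRCm38.p6, of which Agtr1a has none in the table used, and the transcripts are from GENCODE M21.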

Additional observations from a re-analysis of the deposited data

How the results depend on the processing

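Ace, Mas1 and Airn kept their direction and their call at an adjusted p of 0.05 under all 15 alternatives (Ace between 0.66 and 0.86). Scaling by library size alone, which moves the median gene to 0.13, gave Agt 0.09, a wider-list median of 0.06 with 2 genes higher at an adjusted p below 0.05 (Mas1 and Prep), and no call for Enpep (-0.11) and Atp6ap2 (-0.10), hence 0 lower genes of the 7. Kidney 2 alone gave Enpep -0.19 and Atp6ap2 -0.18, not called, hence again 0 lower. Each kidney as its own library called Agtr1a at -0.18. DESeq2 called 2 genes of the wider list higher by either rule, Mas1 and Cpa3, and no filter gave the same 2 at an adjusted p below 0.05. Leaving out 1 mouse at a time gave ranges of -0.10 to 0.33 for Ren1, -0.15 to 0.18 for Agt, 0.27 to 0.38 for Mme, -0.26 to -0.20 for Enpep and -0.26 to -0.20 for Atp6ap2, with 1 to 2 genes called higher and 0 to 2 lower at an adjusted p below 0.05. The wider list then had 1 to 3 genes higher, 3 without the TG+ mouse 43-29, when Cma1 and Cpa3 were added. At the same limit its lower genes numbered 3 as reported, but 2 without the TG- mouse 43-76 and 2 with library size alone. With each kidney as its own library they numbered 4. Other limits gave 2 higher and 2 lower of the 7 genes at 0.05, 1 higher and 0 lower at 0.01 and 0 and 0 at 0.001, and 0 with any minimum fold of 2 or 4. The cause of these shifts was not tested. Per kilobase of the longest GENCODE transcript in place of RPKM, an alternative chosen after seeing the data, the level of Ace over Atp6ap2 was 1.26 in TG- (0.683 by RPKM) and 2.44 in TG+ mice (1.32), and that of Mme over Enpep 0.239 (0.701) and 0.349 (1.02).

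Littermate pairs were read from the order in the deposited file's name, since the labels give none. The deviations of paired mice correlated at 0.307, 0.283 and -0.0599, so the pairing is not established. With the pairs as a replicate block no call among the 7 genes changed: Ace was 0.74, Mme 0.33, Enpep -0.23 and Atp6ap2 -0.22, and 5912 genes passed an adjusted p of 0.05 beside 5087 without it. With 3 mice a group, the wide spread of Ren1 and Agt limits what could be detected, and Agtr1b is limited by its reads.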

Other observations

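Genes of mast cells, whose chymase and carboxypeptidase can also form or cut angiotensins, had few reads, and most of them came from the TG+ mouse 43-49. Cpa3, mast cell carboxypeptidase, had 4, 112 and 13 reads in the TG+ mice 43-29, 43-49 and 43-75, and 1, 4 and 1 in the TG- mice 43-26, 43-50 and 43-76. Cma1, the chymase, had 45 reads in 43-49, 10 in 43-75 and 0 in each other mouse. Tpsb2, a tryptase, had 116 reads in 43-49 and at most 11 in any other mouse. Without the filter on low counts edgeR gave an adjusted p of 0.0318 for Cpa3 and 0.051 for Cma1. Both rest on the library pair of 1 mouse, and Kit, which mast cells share with other cells, was not called at 0.22 (SE 0.08, adjusted p = 0.0658 by edgeR).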
